A study of Mus musculus with 5 samples.

Results

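Whole lungs of unventilated Cldn4 knockout mice were compared with those of unventilated wild type mice by RNA sequencing, to ask how the lung transcriptome differs between the genotypes at rest. The members are all genes whose mean abundance over both groups was at least 1 on the log2 CPM scale (CPM are read counts scaled to a common library size), which left 13638 of the 21590 genes in the authors' deposited table and set 7952 aside. Direction was fixed by Cldn4 itself, so a positive log2 fold change means higher in the knockout. Both groups had a mixed 129S6, C57BL/6 and BALB/c background, and their lungs were taken directly, with no ventilation. The wild type carries no label of any altered allele, and the other group is labelled only as a Cldn4 knockout. How the allele was made, the age and sex of the mice and whether they were littermates are not given in the sources used here. Ventilated lungs of the same series enter below as other animals: wild type and knockout mice after 2 h of ventilator-induced lung injury at 40 cmH2O, the knockouts divided by the submitters into lungs with injury like that of wild type (low injury) and lungs with more (high injury).

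Claudins are membrane proteins that join neighbouring epithelial or endothelial cells at the tight junction and set which ions pass between the cells. Claudin-4 is found in epithelia, in the lung mostly in alveolar and airway epithelial cells, and its expression is known to rise when the lung is injured. Its cytoplasmic end binds scaffold proteins such as ZO-1, the product of Tjp1, while claudin-18 and claudin-3 are the other main claudins of the alveolar epithelium and claudin-5 is that of endothelium.

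The design text gives duplicates, thus 2 libraries per group, but the values used here are group comparisons without columns per library. Each gene therefore has 1 level per group, rebuilt here in CPM from the deposited fold change and mean abundance, the depth behind it is unknown, and whether groups overlap cannot be said. A gene was called, and is said to have risen or fallen, where the adjusted p (false discovery rate) in the authors' deposited table was below 0.05. How the spread behind these p-values was estimated is not given in the sources used here. With duplicates it can reflect at most the spread between such libraries, which may be technical, since nothing in the labels says that they came from separate mice. Sizes after "rose by" or "fell by" and values without a unit are log2 fold changes, knockout minus wild type. Standard errors (SE) and intervals are approximations made here from the deposited fold change and p-value. The tissue label was checked against markers: 19 of 20 alveolar type 2, 16 of 16 alveolar type 1, 24 of 24 endothelial and 15 of 16 club cell genes passed the abundance minimum, while 0 of 7 basal cell genes and 2 of 10 thymus genes did. Xist, the transcript of the inactive X chromosome, stood at 891 CPM in wild type and 505 CPM in knockout. The Y-linked genes Ddx3y, Kdm5d, Uty and Eif2s3y stood below 0.5 CPM in both unventilated groups. In ventilated wild type, low-injury and high-injury knockout Ddx3y stood at 115, 107 and 90.7 CPM and Xist at 6.13, 4.08 and 2.56 CPM. The unventilated and ventilated animals thus differed in sex-linked transcripts as female and male mice do. Wherever levels are set side by side over the 5 groups below, ventilation and this difference cannot be told apart.

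Cldn4 was nearly absent from the knockout. Its level was 9.38 CPM in wild type and 0.140 CPM in knockout (38.9 and 0.582 CPM if the deposited abundance is a mean of log2 values, which the sources used here do not settle), with a log2 fold change of -6.06 (SE 0.54, adjusted p = 4.07e-26) in the authors' deposited table. The knockout level lies near the floor of such estimates, so this fold is a fitted value and not a bound. In ventilated lungs the level was 139.7 CPM in wild type, 0.0212 CPM in low-injury and 0.122 CPM in high-injury knockout, so the gene marks the genotype in every group of the series.

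None of the other claudins changed by the test. Of 12 claudin genes measured, 1 was called, Cldn4 itself, against 4.96% of all members called in either direction, 2.09% higher and 2.87% lower. Cldn18, the main alveolar claudin, stood at 1179 CPM in wild type and 862 CPM in knockout, a log2 fold change of -0.45 with a 95% interval of -0.89 to -0.02 (adjusted p = 0.377 in the authors' deposited table). Cldn3, close to Cldn4 in sequence and on the chromosome, stood at 135 and 144 CPM, and its interval of -0.19 to 0.37 leaves room for a small difference either way. Cldn5, the endothelial claudin, was at 0.21 (interval -0.07 to 0.48, adjusted p = 0.684) and Cldn7, an epithelial one, at 0.11 (adjusted p = 1) in the authors' deposited table. The lowest values after Cldn4 belonged to Cldn15 (-0.61, adjusted p = 0.451), Cldn23 (-0.55, adjusted p = 0.53) and Cldn8 (-0.55, adjusted p = 0.189) in the same table. Cldn1, Cldn10, Cldn12 and Cldn25 lay between -0.10 and 0.14.

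The shares called were 0% for scaffold and polarity, 5.56% for adherens junction and desmosome and 4.76% for fluid transport genes. Over all members the share was 4.96%, and lists this short cannot be told apart from it. None of 25 scaffold and polarity genes was called (median log2 fold change -0.07, against 0.01 over all members), with values from -0.62 to 0.46. Among 18 adherens junction and desmosome genes 1 rose, Pvrl2, which encodes nectin-2, from 49.6 to 71.1 CPM (0.52, SE 0.14, adjusted p = 0.0153 in the authors' deposited table). Of 21 sodium and fluid transport genes, which clear liquid from the airspace, 1 rose: Cftr, the chloride channel mutated in cystic fibrosis, from 20.4 to 30.9 CPM (0.60, SE 0.17, adjusted p = 0.0246 in the authors' deposited table). None of the genes next to Cldn4 on chromosome 5 was called. Of the 10 measured neighbours on each side in gene order, 0 of 20 were called, with log2 fold changes from -0.62 to 0.56 and a smallest adjusted p of 0.12, and 2 of 100 were called among the 50 on each side.

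Over the whole lung, 676 of 13638 members were called: 285 higher and 391 lower in the knockout (the plot of fold change by abundance shows them). Most genes were close between the genotypes, since 88.0% of members lay within 0.5 of 0 on the log2 scale and the middle 90% from -0.58 to 0.51. Calls reached down to 0.45 in size, and the median called rise was 0.77 and the median called fall -0.86. At least 1 in size were 101 rises and 155 falls, and at least 2 were 25 rises and 12 falls. At the abundance minimum, Asprv1, Gata4, Ggt1 and Bend6 lay just inside (mean log2 CPM 1.02, log2 fold changes -0.19, -0.19, -0.38 and -0.78 in the authors' deposited table) and Pthlh just outside (0.99, log2 fold change 0.44). Below the minimum another 50 genes were called, which makes 726 of all 21590 genes (3.36%). An exact fold change of 0 was deposited for 119 members, among them the abundant secretory genes Scgb1a1 and Sftpc, and nothing is said of those.

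**Figure D1:**
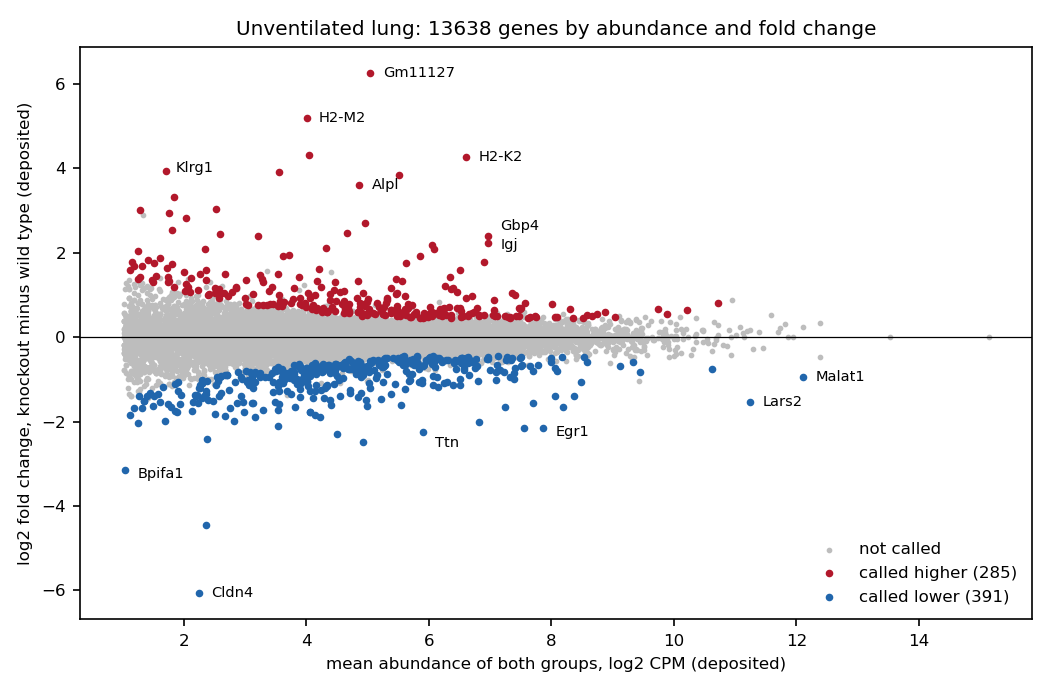
Each point is 1 of 13638 genes, by mean abundance of both groups (log2 CPM) and by log2 fold change of unventilated knockout minus wild type; red points were called higher and blue points called lower at an adjusted p below 0.05, grey points were not called. Cldn4 is the lowest point at -6.06, Gm11127 the highest at 6.25, and most genes lie within 0.5 of 0.

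The largest rises were in class I genes of the mouse major histocompatibility complex, taken up below with their neighbours. Apart from those, Klrg1, an inhibitory receptor of killer lymphocytes, went from 0.399 to 6.14 CPM (3.94, SE 0.93, adjusted p = 0.00172 in the authors' deposited table). Alpl, the tissue-nonspecific alkaline phosphatase, went from 4.45 to 53.7 CPM (3.59, SE 0.23, adjusted p = 7.91e-51 in the same table). C1qtnf3 rose by 3.32 and Serpina3f by 2.40 in the authors' deposited table. These genes had low wild type levels: 0.650 CPM for C1qtnf3 and 2.94 CPM for Serpina3f.

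The largest falls were of mixed kinds. After Cldn4 came AI506816, an uncharacterised transcript that fell by 4.45 in the authors' deposited table. Bpifa1, a secreted airway defence protein, stood at 3.69 CPM in wild type and 0.417 CPM in knockout (-3.14, SE 0.92, adjusted p = 0.0265 in the authors' deposited table). Grp, gastrin-releasing peptide of neuroendocrine cells, went from 8.72 to 1.63 CPM (-2.42, SE 0.33, adjusted p = 1.97e-10). It was the 1 member called of 5 measured neuroendocrine genes, the others being Ddc at -0.90, Syp at 0.32, Uchl1 at 0.26 and Scg5 at -0.17. Lars2, which encodes mitochondrial leucyl-tRNA synthetase, went from 3596 to 1243 CPM (-1.53, SE 0.15, adjusted p = 1.06e-22 in the authors' deposited table). Other large falls were in muscle, B cell, MHC class II and immediate early genes, described by group below and shown in the plot of gene lists.

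**Figure D2:**
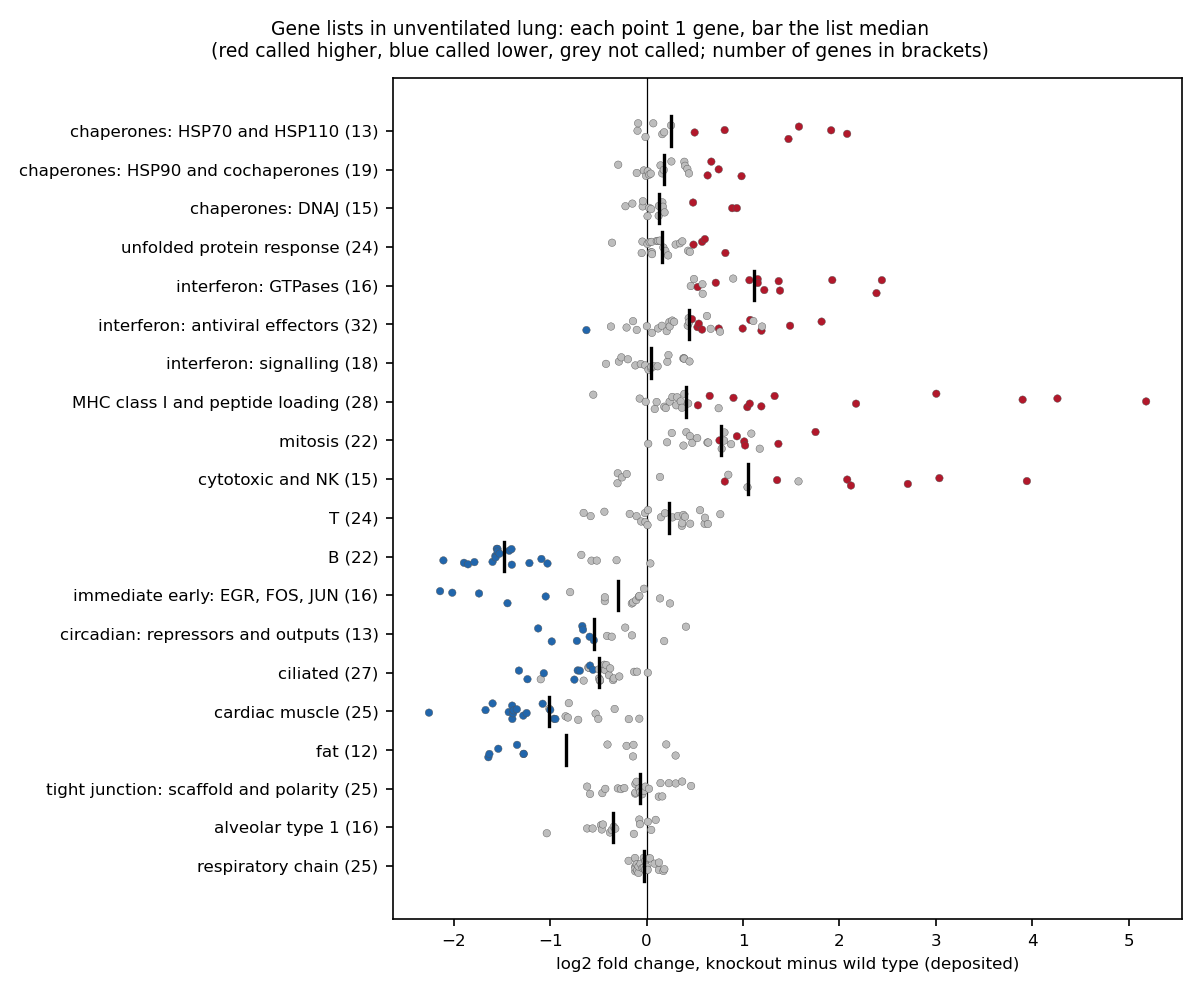
Each point is 1 gene of the list named on the left, by its log2 fold change of unventilated knockout minus wild type; the black bar is the list's median, and colours are those of the calls at an adjusted p below 0.05. Interferon GTPases (median 1.11), cytotoxic cell genes (1.05) and mitosis genes (0.77) lie to the right of 0, B cell (-1.47), cardiac muscle (-1.01) and fat genes (-0.84) to the left, and respiratory chain genes (-0.03) around 0.

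Of the 66 measured chaperone genes 15 rose and 1 fell. Chaperones fold newly made or damaged proteins, and many are switched on together by the heat shock factor HSF1, which binds heat shock elements, repeats of GAA and its reverse complement. In the group of HSP70 and HSP110 genes 6 of 13 rose and 0 fell (median 0.25), in that of HSP90 and its cochaperones 4 of 19 rose and 0 fell (0.18), and in that of the DNAJ cochaperones 3 of 15 rose and 0 fell (0.13). Small heat shock proteins, chaperonins and regulators gave 2 rises and 1 fall of 19 (0.16). The share of all members called higher was 2.09%, with a median of 0.01.

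Promoter sequences are shown for 4 of the chaperone genes that rose, because each holds a heat shock element in a window where the members of a group moved together. They come from RefSeq (GRCm38.p6) and cover a stretch of the window from 250 bases before to 50 bases after the gene's start, written 5′ to 3′ on the gene's strand, with capitals marking matches to GAANNTTC, a motif that reads the same on both strands.
Hspa1b (chr17:34959315-34959362, minus strand): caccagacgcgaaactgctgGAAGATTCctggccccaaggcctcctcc
Fkbp4 (chr6:128438780-128438827, minus strand): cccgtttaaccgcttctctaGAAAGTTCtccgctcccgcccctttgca
Dnaja1 (chr4:40722324-40722371, plus strand): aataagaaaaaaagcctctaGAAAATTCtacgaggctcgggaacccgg
Hspb1 (chr5:135887782-135887849, plus strand): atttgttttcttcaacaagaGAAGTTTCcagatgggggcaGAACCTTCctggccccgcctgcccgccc
Hspa1a (chr17:34972233-34972280, minus strand) has the same letters as Hspa1b over the stretch shown. The match begins 104 bases before the start in Hspa1b, 151 in Fkbp4, 124 in Dnaja1 and 117 in Hspb1, which holds a second match. Among 13 risen chaperone genes with a promoter in the RefSeq table, 8 held GAANNTTC (61.5%), against 16 of 54 measured chaperone genes (29.6%) and 2442 of all 27025 promoters of the same length (9.04%). The other phase of the repeat, TTCNNGAA, was in 2 of the 13 and in 9.60% of all promoters. A match is a description of letters and does not show binding.

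Hspa1b, the inducible HSP70, went from 25.8 to 109 CPM (2.08, SE 0.32, adjusted p = 4.28e-08 in the authors' deposited table). Its near-identical copy Hspa1a went from 24.1 to 91.0 CPM (1.91, SE 0.31). Reads of the 2 copies can be split between them, so their single values are uncertain. Hsph1, the HSP110 exchange factor of HSP70, went from 45.5 to 136 CPM (1.58, SE 0.22, adjusted p = 1e-09 in the authors' deposited table). The constitutive Hspa8 rose by less, from 1230.5 to 2158 CPM (0.81). The testis-rich Hspa1l rose by 1.47 and the endothelial Hspa12b by 0.50 in the authors' deposited table. By contrast Hspa9, the HSP70 of mitochondria, stood at 175 and 174 CPM.

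Fkbp4, a cochaperone of steroid receptors, went from 114 to 225 CPM (0.99, SE 0.15, adjusted p = 1.01e-08 in the authors' deposited table). Chordc1 rose by 0.75, Stip1, which links HSP70 to HSP90, by 0.67, and Hsp90ab1, the constitutive cytosolic HSP90, by 0.63 in the same table. The inducible Hsp90aa1 was at 0.39 (adjusted p = 0.177) and Bag3 at 0.44 (adjusted p = 0.0571), neither of them called. Of the DNAJ proteins, which deliver clients to HSP70, Dnajb1 rose by 0.94, Dnaja1 by 0.89 and Dnaja4 by 0.48 in the authors' deposited table. Hspb1, the small heat shock protein HSP27, went from 61.0 to 99.99 CPM (0.71), and Serpinh1, the collagen chaperone, from 191 to 327 CPM (0.78). The exception was Hspb7, a small heat shock protein of heart muscle, which fell from 27.4 to 11.9 CPM (-1.21, SE 0.23 in the authors' deposited table). The 25 measured cardiac muscle genes all had negative values (15 called, summed level 1228 CPM in wild type and 589 CPM in knockout), and their part in the fall of Hspb7 was not tested. Hsf1, the heat shock factor gene, stood at 36.2 and 37.3 CPM (0.04, adjusted p = 1).

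The unfolded protein response of the endoplasmic reticulum showed smaller rises. Of its 24 genes 4 rose and 0 fell (median 0.16): the calcium-binding chaperone Calr by 0.60, Manf by 0.58, Sdf2l1 by 0.82 and Hspa5, the reticulum's HSP70 known as BiP, by 0.49 in the authors' deposited table. Its transcription factors were not called, with Atf4 at 0.03, Ddit3 at 0.14 and Xbp1 at 0.35. Targets of the tumour suppressor p53, a list added after values were seen, gave 7 rises and 0 falls of 26 (median 0.13). For both lists, the share of all members called higher was 2.09%. Pmaip1, which encodes the death-promoting NOXA, went from 13.8 to 29.7 CPM (1.11, SE 0.18, adjusted p = 5.68e-07 in the authors' deposited table). Cdkn1a, the cell cycle inhibitor p21, went from 27.5 to 52.1 CPM (0.92, SE 0.16, adjusted p = 1.95e-06). The p53 target Mdm2, however, was at -0.26 and Ccng1 at -0.26, neither of them called.

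Interferon-inducible GTPases formed the list in which the largest share of members rose. These proteins (guanylate-binding proteins, GBPs, and immunity-related GTPases) attack the vacuoles of intracellular microbes and are induced above all by interferon gamma. All 16 measured members had positive log2 fold changes, from 0.46 to 2.44 (median 1.11), and 11 were called. Antiviral effectors, induced mainly by type I interferon, gave 10 rises and 1 fall of 32 (median 0.44). Genes of interferon signalling, the receptors, STATs and IRFs, gave 0 calls of 18 (median 0.05). The shares over all members were 2.09% called higher and 2.87% lower.

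Interferon-stimulated response elements in the promoters of 5 risen genes are printed because several members of the interferon and MHC class I lists hold them. Sequences are again from RefSeq (GRCm38.p6), on the gene's strand, and capitals mark the motif GAAAC, any base, GAAA (the narrow form) or its reverse complement.
Igtp (chr11:58199502-58199551, plus strand): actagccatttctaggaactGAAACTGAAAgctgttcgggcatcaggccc
Irgm2 (chr11:58214893-58214942, plus strand): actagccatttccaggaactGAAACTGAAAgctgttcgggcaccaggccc
Isg15 (chr4:156200855-156200910, minus strand): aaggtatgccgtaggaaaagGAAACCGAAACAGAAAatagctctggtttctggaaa
Gbp3 (chr3:142559979-142560028, plus strand): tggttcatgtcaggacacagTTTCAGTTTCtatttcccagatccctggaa
B2m (chr2:122147528-122147577, plus strand): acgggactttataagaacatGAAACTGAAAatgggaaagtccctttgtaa
Igtp and Irgm2 are neighbours and share most of the stretch shown, Isg15 has overlapping matches, and Gbp3 holds the motif on the opposite strand. The match begins 34 bases before the start in Igtp, 64 in Irgm2, 72 in Isg15, 45 in Gbp3 and 139 in B2m. Of 21 risen interferon and MHC class I genes with a promoter in the table, 9 held the narrow form on either strand (42.9%), against 15 of 50 measured genes of these lists (30%), 13 of 206 called higher in all (6.31%) and 0.792% of all 27025 promoters. With the looser form GAAA, any 2 bases, GAAA, which includes those matches, the counts were 12 of 21 (57.1%), 25 of 50 (50%), 25 of 206 (12.1%) and 3.99% of all promoters. None of the 13 risen chaperone genes held either form, and of the 21 interferon and MHC class I genes 2 held GAANNTTC, 4 held TTCNNGAA (19.0%, against 15.4% of risen chaperone genes) and 5 held at least one of these.

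The GTPase gene Gbp4 went from 40.2 to 210.2 CPM (2.39, SE 0.40, adjusted p = 4.75e-07 in the authors' deposited table). In ventilated lungs the same gene stood at 22.1 CPM in wild type, 35.6 CPM in low-injury and 46.8 CPM in high-injury knockout, so the unventilated knockout was the highest of all 5 groups. Gbp11 rose by 2.44, Gbp10 by 1.93, Gbp6 by 1.37 and Gbp8 by 1.15 in the authors' deposited table. These genes lie next to each other on chromosome 5 and resemble each other in sequence, so reads may be shared among them. On other chromosomes Igtp went from 24.5 to 63.9 CPM (1.38, SE 0.32), Irgm2 from 46.2 to 108 CPM (1.22) and Tgtp2 from 52.0 to 116 CPM (1.15). Members that missed the threshold were Gbp2 (0.58, adjusted p = 0.0552), Iigp1 (0.90, adjusted p = 0.0672), Gbp7 (0.58), Irgm1 (0.46) and Gvin1 (0.49) in the authors' deposited table.

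Of the antiviral effectors, Oas2 and Oas3, which sense double-stranded RNA, rose by 1.49 (SE 0.35) and 1.82 (SE 0.42) from low levels of 3.34 and 1.18 CPM. Isg15, a ubiquitin-like modifier, went from 4.44 to 9.36 CPM (1.08, adjusted p = 0.0031 in the authors' deposited table). Ifitm3, which blocks viral fusion, went from 228 to 317 CPM (0.47, adjusted p = 0.0316). The 1 fall was in Samd9l, from 102 to 66.5 CPM (-0.62, adjusted p = 0.00543 in the authors' deposited table). Several classical members were near 0, with Ifit3 at -0.21, Usp18 at 0.12, Ifih1 at 0.06 and Eif2ak2 at -0.14, none of them called. Cytotoxic lymphocyte genes, whose cells make interferon gamma, were higher in the same lungs (7 of 15 called, summed level 65.1 CPM in wild type and 185 CPM in knockout), and their part in the interferon genes was not tested.

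MHC class I molecules, which show peptides to CD8 T cells and killer cells, had genes that gave 12 rises and 0 falls of 28 together with peptide loading genes (median 0.41). The share of all members called higher was 2.09%. H2-K2 went from 9.67 to 186 CPM (4.26, SE 0.24, adjusted p = 1.37e-65 in the authors' deposited table). H2-M2 went from 0.860 to 31.2 CPM (5.18, SE 0.32), H2-Bl from 1.47 to 22 CPM (3.90) and H2-Q10 from 24 to 108 CPM (2.17). These are nonclassical or less studied class I genes with near-identical copies in the region, so reads may have been split or shifted among copies and single values are uncertain. The predicted class I-like genes Gm11127 (6.25, adjusted p = 1.15e-76), Gm7030 (4.30) and Gm8909 (3.83) had fold changes of the same order in the authors' deposited table. By contrast the classical genes were not called: H2-K1 stood at 826 and 787 CPM (-0.07) and H2-D1 at 860.0 and 1099.6 CPM (0.35, adjusted p = 0.482). B2m, the light chain that every class I molecule needs and a gene outside the complex, went from 661 to 1041 CPM (0.66, SE 0.20, adjusted p = 0.0336 in the authors' deposited table). Of the peptide loading genes Psmb9, an immunoproteasome subunit, rose by 0.90, while Tap1 (0.18), Tap2 (-0.01) and Tapbp (0.10) were not called.

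MHC class II genes, which show peptides to CD4 T cells, were divided. Of 13 measured 3 fell and 0 rose, against 2.87% of all members called lower. H2-Ob fell from 37.6 to 7.70 CPM (-2.29, SE 0.22, adjusted p = 1.06e-22 in the authors' deposited table), H2-Oa from 6.64 to 2.52 CPM (-1.40) and H2-Eb2 from 5.13 to 1.29 CPM (-1.99). H2-Oa and H2-Ob encode the chains of H2-O, a regulator of peptide loading found mostly in B cells, whose markers were also lower (17 of 22 called, summed level 404 CPM in wild type and 177 CPM in knockout). The part of B cells in these 3 falls was not tested. The other 10 measured class II genes were not called, among them Cd74, the invariant chain, at 0.49 (adjusted p = 0.0855), H2-Ab1 at 0.36 and H2-Aa at -0.20 in the authors' deposited table.

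Called genes were more frequent on chromosome 17, which carries the complex, than on the other chromosomes (shown in the plot of gene order). There 57 of 677 members were called (8.42%; 27 higher, 30 lower), followed by chromosome 14 with 7.17% and chromosome 13 with 6.04%. Chromosome 16 had the lowest share (2.53%), and chromosome 5, the home of Cldn4, had 5.19%. On chromosome 1 nearly all calls were falls, 31 against 4 rises. In windows of 25 neighbouring members, sliding along each chromosome, 32.9% held no called gene and 34.1% held 1, while 9 was the most found. A window with 9 rises ran from Gm8801 to H2-M2 on chromosome 17 and held H2-T24, H2-T23, H2-T3 and H2-M3 besides the genes above. Another with 9 calls, on chromosome 4 from Emc1 to AI507597, held rises of Fblim1 (1.33), Mfap2 (1.31), Tmem82 (2.54) and Padi4 (1.30) beside falls of Padi2 (-1.98) and Hspb7 in the authors' deposited table. A window with 8 rises on chromosome 5, from Fam175a to Lrrc8b, held Gbp4, Gbp6, Gbp8, Gbp9, Gbp10 and Gbp11 with Spp1 (0.64) and Lrrc8b (0.51). Genes of these windows are relatives in the MHC and GBP cases and mostly unrelated in the window of chromosome 4. The order of genes and their chromosomes were taken from RefSeq (GRCm38.p6), a newer build than the mm9 named in the submitters' processing notes, so windows are given by gene names and not by positions.

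**Figure D3:**
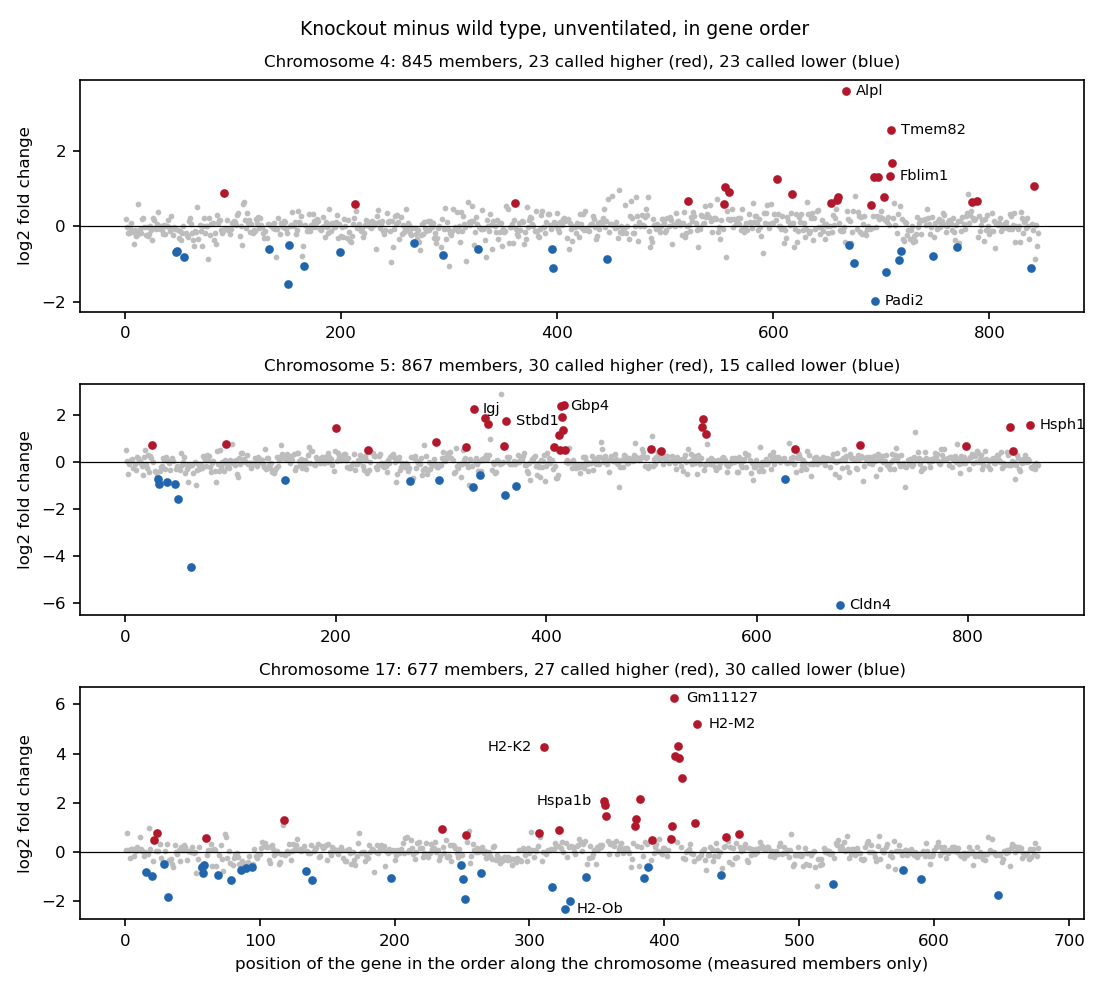
Each point is 1 measured gene in its order along chromosomes 4, 5 and 17, by log2 fold change of unventilated knockout minus wild type; red and blue points were called higher and lower. Calls gather around H2-M2 on chromosome 17, around the GBP genes on chromosome 5 and around Fblim1 on chromosome 4, while the genes on either side of Cldn4 were not called.

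Most B cell genes fell. Of 22 B cell markers 17 fell and 0 rose (median -1.47, against 2.87% of all members called lower). The antigen receptor chains Cd79a and Cd79b went from 31.9 to 10.5 CPM (-1.60, SE 0.23) and from 45.8 to 19.7 CPM (-1.21, SE 0.21). Faim3, the Fc receptor for IgM, went from 18.9 to 4.38 CPM (-2.11, adjusted p = 2.26e-14), and Bank1 and Ms4a1 (CD20) fell by 1.89 and 1.79 in the authors' deposited table. Not called were Ebf1 (-0.68), Pou2af1 (-0.52), Blnk (-0.57), Cd72 (-0.31) and Vpreb3 (0.04). Since these are bulk samples, fewer cells of a type and less RNA per cell cannot be told apart, here or for any other marker list.

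Of the plasma cell genes 2 rose and 0 fell, against 2.09% of all members called higher. Igj, the joining chain of secreted IgA and IgM, rose from 43.8 to 206 CPM (2.24, SE 0.24, adjusted p = 1.13e-17 in the authors' deposited table), and Derl3 from 1.56 to 4.27 CPM (1.45). The other 10 of the 12 measured genes were not called: Creld2 (0.45), Xbp1 (0.35), Slamf7 (0.67), Mzb1 (0.33), Pim2 (-0.24), Prdm1 (0.15), Irf4 (0.19), Fkbp11 (0.27), Sdc1 (-0.07) and Txndc5 (0.06).

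Genes of cytotoxic T and NK cells rose in 7 of 15 cases and fell in none (median 1.05), against 2.09% of all members called higher. Of 21 deposited genes of the list, 15 passed the abundance minimum, which was set on the mean of both groups. Klrg1 and Tbx21, at 0.399 and 1.25 CPM in wild type, passed it only through their knockout level. Such entries push the count and the median of the list upward. Gzma, the protease granzyme A, went from 7.47 to 32.5 CPM (2.12, SE 0.48, adjusted p = 0.000863 in the authors' deposited table). Ccl5, a chemokine that killer cells secrete, went from 8.22 to 53.8 CPM (2.71, SE 0.62), and Tbx21, the transcription factor T-bet, from 1.25 to 10.3 CPM (3.04, SE 0.73). Perforin, Prf1, rose by 1.35 and granzyme B, Gzmb, by 2.08 in the authors' deposited table. The genes of this list with values below 0 were NK receptors and regulators: Ncr1 (-0.30), Klrk1 (-0.21), Eomes (-0.25) and Txk (-0.30), none called. General T cell genes gave 0 calls of 24 (median 0.23), with Cd3e at 0.19, Cd8a at 0.76 (adjusted p = 0.334) and Cd4 at 0.45 in the authors' deposited table. In all 3 ventilated groups Gzma was low, at 6.63, 4.6 and 7.98 CPM.

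All 22 measured mitosis genes, of 25 listed, had positive values (median 0.77), and 6 rose, against 2.09% of all members called higher. Top2a, the topoisomerase of dividing cells, went from 10.2 to 19.5 CPM (0.94, SE 0.21, adjusted p = 0.000782 in the authors' deposited table). Mki67, the standard proliferation marker, went from 22.1 to 37.3 CPM (0.76, adjusted p = 0.0268). The kinases Aurkb and Aurka rose by 1.75 and 1.37 from 1.31 and 1.33 CPM. These wild type levels lie below the abundance minimum, which was set on the mean of both groups. Both kinases thus entered only through their knockout level, and such entries push the values of the list upward. Of 23 DNA replication and histone genes 1 rose, Rrm2, a subunit of ribonucleotide reductase (1.16), and the median was 0.27. In ventilated lungs the mitosis genes had medians of -0.29 in low-injury and -0.27 in high-injury knockout against ventilated wild type, with 0 of 19 and 0 of 19 called, in comparisons where 1.38% and 2.26% of members were called. The difference between the unventilated and ventilated genotype contrasts was not tested, for this or any list.

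Immediate early genes encode transcription factors and signalling brakes that cells induce within minutes of a stimulus. Among 45 measured, 12 fell and 1 rose, against 2.87% of all members called lower and 2.09% higher. Of the EGR, FOS and JUN group 5 of 16 fell and 0 rose (median -0.29), and of the NR4A, KLF and feedback group 7 of 29 fell and 1 rose (-0.23). Egr1 went from 381 to 86.4 CPM (-2.14, SE 0.41, adjusted p = 3.28e-05 in the authors' deposited table), and Fos from 179.8 to 44.5 CPM (-2.02, SE 0.46). Nr4a1, an orphan nuclear receptor, went from 308 to 68.9 CPM (-2.16, SE 0.43). Btg2, an inhibitor of proliferation, and Cyr61, a matricellular protein, had the smallest p-values: Btg2 went from 482 to 182 CPM (-1.40, adjusted p = 4.6e-15) and Cyr61 from 443 to 140.0 CPM (-1.66, adjusted p = 2.71e-12) in the authors' deposited table. Not all members shared this, since Jun stood at 407 and 387 CPM, Jund at 317 and 299.6 CPM and Klf4 at 167 and 169 CPM, and Ier5 rose by 0.46. Apold1, an early response gene of endothelium, fell to 2.73 CPM in knockout (-1.87, adjusted p = 0.000227 in the authors' deposited table). In high-injury knockout against ventilated wild type, by contrast, 11 of 16 genes of the EGR, FOS and JUN group rose (median 1.13). There 18 of 29 genes of the other group rose (0.88), where 1.58% of members were called higher. Low-injury knockout showed less, with 0 of 16 (0.36) and 2 of 29 (0.29) called, where 0.935% of members were called higher. Egr1 reached 2956 CPM in high-injury knockout, the highest level of the 5 groups, and the unventilated knockout had the lowest (plot of group levels).

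**Figure D4:**
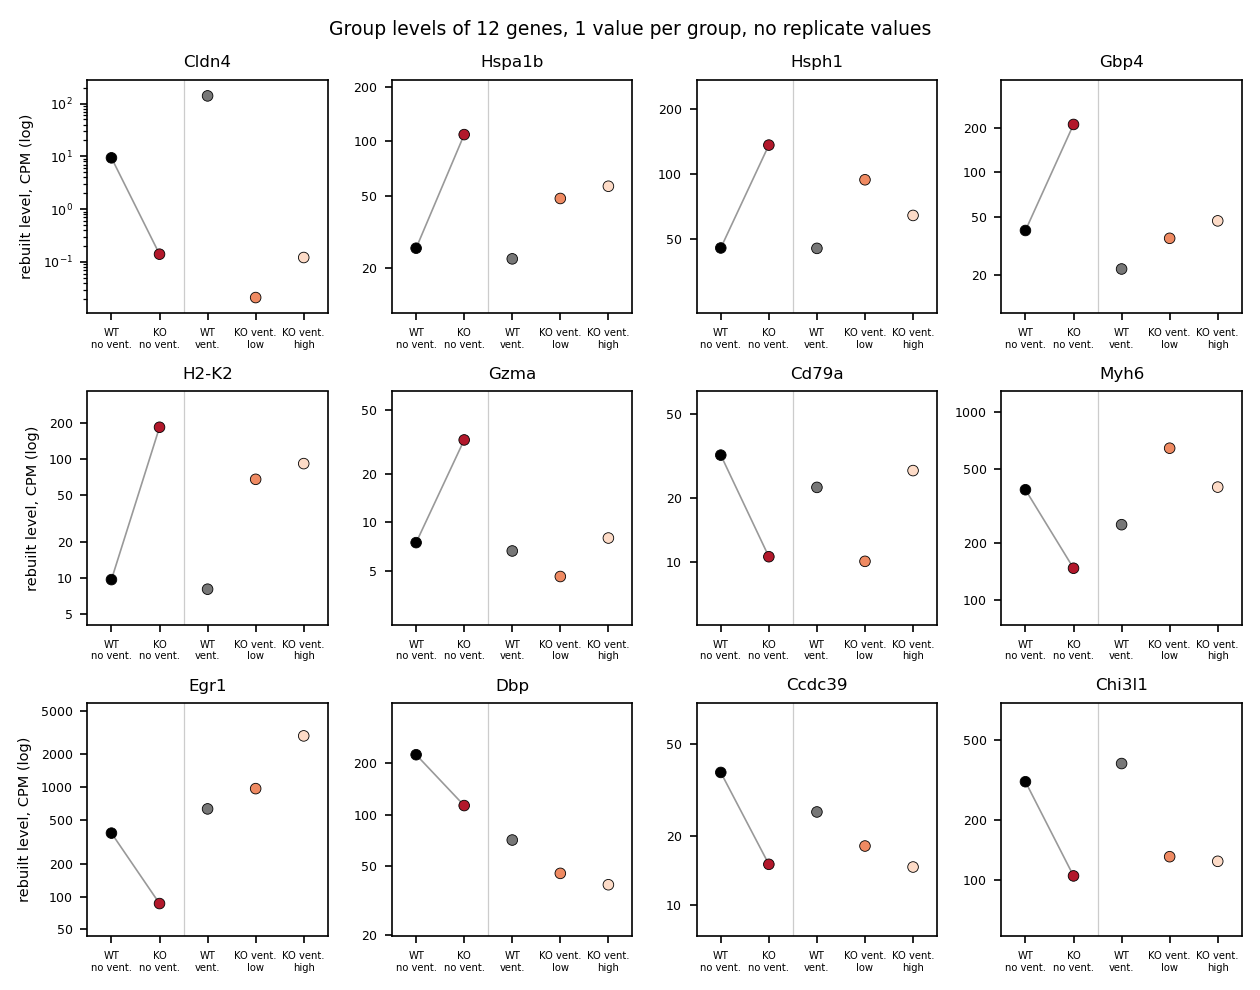
Rebuilt level in CPM (log axis) of 12 genes in the 5 groups, 1 value per group and no error bars because no values per library were used; the line joins unventilated wild type and knockout. Chi3l1 and H2-K2 show the same direction between genotypes with and without ventilation, Myh6 and Egr1 do not.

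Outputs of the circadian clock were among the genes that fell. In the clock, ARNTL and CLOCK switch on the repressor genes Per, Cry, Nr1d1 and Nr1d2 and the output factors Dbp, Tef and Hlf. Of 13 repressors and outputs 7 fell and 0 rose (median -0.55), against 2.87% of all members called lower. Dbp went from 224 to 113 CPM (-0.98, SE 0.14, adjusted p = 4.26e-09 in the authors' deposited table), and Nr1d1, the repressor REV-ERB alpha, from 331 to 201 CPM (-0.72, SE 0.14). Per1 (-0.67), Per3 (-0.55), Tef (-0.59), Nr1d2 (-0.66) and Bhlhe41 (-1.12) also fell in the authors' deposited table. In a list of 5 other clock genes, which holds the activators and Nfil3, a repressor that competes with DBP, Nfil3 rose from 4.45 to 8.70 CPM (0.97, adjusted p = 0.0436), while Arntl was at 0.87 (adjusted p = 0.229), Clock at 0.09 and Rora at -0.14. The E-box CACGTG, the site of ARNTL and CLOCK, was in 3 of the 7 promoters of fallen genes (Bhlhe41, Per1 and Tef), in 4 of 11 measured clock repressors and outputs with a promoter in the table (36.4%), in 11.3% of members and in 8.09% of all promoters.

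Nuclear noncoding RNAs and splicing factor genes, a list added after values were seen, gave 12 falls and 0 rises, with 30 of 31 values below 0 (median -0.45). The share of all members called lower was 2.87%. Malat1, an abundant RNA of nuclear speckles, went from 5814 to 3020.4 CPM (-0.94, SE 0.14, adjusted p = 4.37e-09 in the authors' deposited table). Neat1, the scaffold of paraspeckles, went from 1976 to 1179.7 CPM (-0.74, SE 0.20), and the imprinted Kcnq1ot1 from 51.5 to 24.7 CPM (-1.06, SE 0.16). The list also holds Xist (-0.82, SE 0.20, adjusted p = 0.00339) and its antisense partner Tsix (-0.65, adjusted p = 0.0443), whose reads cannot be told apart unless strand was used, which the labels do not state. Among proteins, the splicing factor gene Srsf5 went from 212 to 109.5 CPM (-0.95, adjusted p = 1.83e-08 in the authors' deposited table), while Srsf3 (-0.15) and Srsf4 (0.06) were not called. Cirbp and Rbm3, RNA-binding proteins known to be induced by cooling and likewise added later, went from 91.9 to 42.0 CPM (-1.13, SE 0.17) and from 45.4 to 31.5 CPM (-0.53, SE 0.15). Levels of Malat1 in ventilated lungs were 5334 CPM in wild type, 4619 CPM in low-injury and 3602 CPM in high-injury knockout.

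Of the epithelial lists, the share of genes called was 15.8% for alveolar type 2, 13.3% for club, 10% for goblet and airway defence, 29.6% for ciliated and 0% for alveolar type 1 cells, against 4.96% of all members. Alveolar type 1 genes, of the thin cells that cover most of the alveolus, gave 0 calls of 16 (median -0.35; 13 values below 0). Akap5 had the lowest value (-1.03, adjusted p = 0.0648), and Ager (-0.08) and Aqp5 (0.01) were near 0 in the authors' deposited table. Alveolar type 2 genes, of the surfactant-producing cells, gave 1 rise and 2 falls of 19 (median 0.22). Chi3l1, a secreted chitinase-like protein, fell from 309 to 105 CPM (-1.56, SE 0.16, adjusted p = 3.49e-20), and Sfta2, a surfactant-associated protein encoded within the MHC region, from 69.0 to 33.3 CPM (-1.05, SE 0.16, adjusted p = 1.73e-08 in the authors' deposited table). The mucin Muc1 rose by 0.46 (adjusted p = 0.0489), while the surfactant protein genes Sftpb (0.22), Sftpa1 (0.31) and Sftpd (0.36) were not called. Club cell genes gave 2 falls of 15, Cyp2a5 and the secretoglobin Scgb3a2 (682 to 427 CPM, -0.68), and goblet and airway defence genes 1 fall of 10, Bpifa1.

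Genes of ciliated cells fell in 8 of 27 cases and rose in none, with 26 of 27 values below 0 (median -0.49). The share of all members called lower was 2.87%. Ccdc39 and Ccdc40, which space the axoneme's inner dynein arms, went from 37.6 to 15 CPM (-1.32, SE 0.22, adjusted p = 2.88e-07) and from 36.3 to 21.6 CPM (-0.75, SE 0.17). Sntn, a protein of the cilium tip, fell by 1.24 and the dynein heavy chain Dnah5 by 0.56 in the authors' deposited table. Dnah8, a dynein chain outside the list and on chromosome 17, went from 29.3 to 7.96 CPM (-1.88, adjusted p = 3.69e-16). Yet Foxj1, the master regulator of motile cilia, stood at 84.7 and 79.1 CPM (-0.10) and the abundant marker Tppp3 at 365 and 369 CPM (0.01).

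Cytochrome P450 genes, which oxidise foreign compounds and lipids and were listed after values were seen, gave 5 falls and 1 rise of 21 (median -0.18). The shares over all members were 2.87% called lower and 2.09% higher. Cyp2a5 went from 229 to 72.4 CPM (-1.66, SE 0.18, adjusted p = 9.77e-18 in the authors' deposited table) and its close relative Cyp2a4 from 54.5 to 19.9 CPM (-1.46, SE 0.16), and reads of this pair may be shared. Cyp1a1, the target of the aryl hydrocarbon receptor, fell by 1.1 and Cyp26b1, which breaks down retinoic acid, rose by 1.42 in the authors' deposited table. The lung members Cyp2f2 (-0.28) and Cyp4b1 (0.05) were not called.

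Many muscle and fat genes fell. Heart muscle cells line the pulmonary veins of mice and can also enter a lung sample with the heart, and fat cells can enter from the mediastinum. All 25 measured cardiac muscle genes had negative values and 15 fell (median -1.01). For this and the other lists of this paragraph, the share of all members called lower was 2.87%. Ttn, the giant spring of the sarcomere, went from 98.8 to 20.7 CPM (-2.26, SE 0.24, adjusted p = 3.45e-18 in the authors' deposited table). Myh6, the alpha myosin heavy chain of heart muscle, went from 386 to 148 CPM (-1.38, SE 0.21). Of 3 measured skeletal muscle genes Ckm, which the heart also expresses, fell by 1.29. Fat genes gave 6 falls of 12 (median -0.84), among them Car3, carbonic anhydrase 3, from 47.9 to 15.5 CPM (-1.63, adjusted p = 6.35e-17), and Adipoq, adiponectin, from 6.59 to 2.27 CPM (-1.54, adjusted p = 0.00355 in the authors' deposited table). Smooth muscle genes of airways and vessels gave 4 falls of 12 (median -0.42): Acta2 went from 191 to 108 CPM (-0.82), Myh11 from 263 to 150.4 CPM (-0.80), and Cnn1 and Lmod1 fell by 0.87 and 0.81. How much heart, vein or fat each sample held was not measured, and the part of it in these falls was not tested. Without all cell type marker genes the whole comparison kept 592 calls, 262 higher and 330 lower.

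Genes called in the endothelial and capillary lists were all higher. Outside these lists the endothelial gene Apold1 (-1.87) and the smooth muscle genes given above fell. Endothelial genes gave 3 rises and 0 falls of 24 (median 0.21), against 2.09% of all members called higher and 2.87% lower. Sox7 and Sox18, transcription factors of endothelium, went from 137 to 241 CPM (0.82, SE 0.16) and from 136 to 217 CPM (0.68, SE 0.18). Mmrn2, an endothelial matrix protein, rose by 0.61, and of 12 capillary genes Apln, the ligand apelin, rose by 0.64 and Car4, the carbonic anhydrase of capillaries, by 0.50 in the authors' deposited table. Pan-endothelial Pecam1 stood at 866 and 989 CPM (0.19, adjusted p = 0.758). Of 15 fibroblast genes 1 fell, Dcn, the matrix proteoglycan decorin (179.7 to 105 CPM, -0.77), and of 18 collagen genes none was called (median 0.26). With lists this short, the fibroblast and collagen counts cannot be told apart from the share over all members.

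Among myeloid genes, Marco, a scavenger receptor of macrophages, rose from 9.05 to 27.8 CPM (1.62, SE 0.27, adjusted p = 1.04e-06 in the authors' deposited table). The alveolar macrophage list otherwise gave a rise of Car4 and a fall of Fabp4, which also belongs to the capillary and the fat list respectively, of 18 genes (median 0.11). For every list of this paragraph, the share over all members was 2.09% called higher and 2.87% lower. Complement genes gave 2 rises and 3 falls of 18, the rises being C1qa (0.78) and C1qc (0.70) of the classical pathway. The falls were Cfd, factor D of the alternative pathway (-1.34), C4b (-1.02) and the inhibitor Cd55 (-0.64) in the authors' deposited table. Monocyte and interstitial macrophage genes, which include C1qa and C1qc, gave 3 rises and 2 falls of 19 (median 0.08), with Cd14 at 0.59, Nr4a1 at -2.16 and Eno3 at -0.75 as the other calls. Neutrophil genes gave 2 rises of 15: the granule protein Ngp went from 0.781 to 5.94 CPM (2.93, SE 0.87, adjusted p = 0.0285) and Padi4 from 1.63 to 4.02 CPM (1.30). The levels are low, and 13 other neutrophil genes were not called (median of the list 0.17). Of 24 cytokines and chemokines 4 rose and 0 fell (median 0.29). Cx3cl1, a chemokine anchored on endothelium and epithelium, went from 70.5 to 138 CPM (0.97, SE 0.16, adjusted p = 8.47e-07 in the authors' deposited table). Cxcl1, which recruits neutrophils, went from 1.61 to 4.99 CPM (1.63, SE 0.47), and the platelet chemokine Ppbp from 1.30 to 4.77 CPM (1.87, SE 0.39), while Il1b stood at 14.6 and 14.7 CPM.

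Several core programmes gave no call at an adjusted p below 0.05. Over all members 4.96% were called, and lists this short cannot be told apart from that share. The lists were cholesterol synthesis (0 of 19, median 0.20), NRF2 and antioxidant genes (0 of 22, -0.02) and hypoxia and glycolysis (0 of 15, 0.03). The respiratory chain also gave 0 calls of 25 (-0.03, all values between -0.19 and 0.18). Of 32 listed ribosomal protein genes 1 was called, Rps2, which fell from 125 to 57.3 CPM (-1.13, adjusted p = 8.37e-09 in the authors' deposited table). Rps3a1, a ribosomal protein gene outside the list, also fell, from 98.9 to 43.6 CPM (-1.18, adjusted p = 5.12e-09 in the same table). This family has many processed copies in the genome that can share reads. Glucocorticoid-responsive genes gave 1 rise, Cdkn1a, and 2 falls, Dusp1 and Per1, of 17. Red cell genes, which report blood left in the lung, gave 0 calls of 9, with a median of 0.53. Mast cell (4 genes), thymus (2) and nerve (4) markers were not called, and of 8 mesothelial genes 1 fell, Gpm6a (-0.58).

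The called genes were next followed in other animals, the ventilated lungs, whose wild type and knockout groups share no samples with the unventilated ones. Of 655 called genes measured in low-injury knockout against ventilated wild type, 501 had the same sign (76.5%). Among all 13253 members measured there and not at exactly 0 in unventilated lung, 60.6% did. A ventilated value of exactly 0 was counted as not the same sign, here and below. In that comparison 1.38% of members were called, 0.935% higher and 0.449% lower, and 74 of the 655 were called in the same direction and 22 in the opposite one. In high-injury knockout against the same wild type group, 454 of 662 had the same sign (68.6%, against 57.8% of all members), and 72 were called in the same direction and 14 in the opposite one, where 2.26% of members were called (1.58% higher, 0.679% lower). The ventilated comparisons share their wild type lungs, so their values are not independent of each other.

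**Figure D5:**
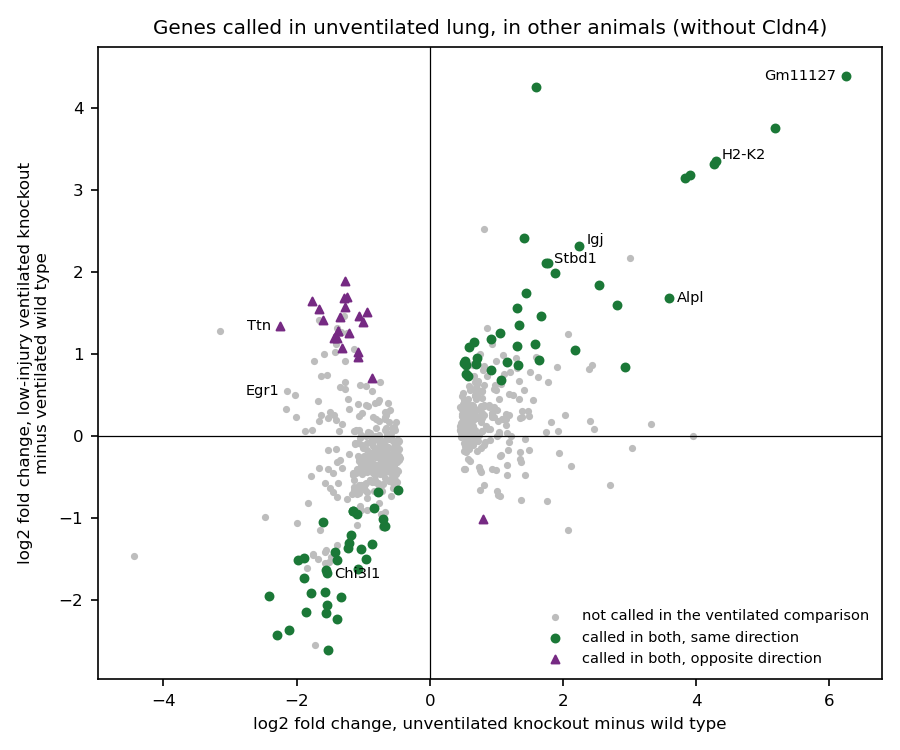
Each point is 1 gene called in unventilated lung (without Cldn4), by its log2 fold change there and in low-injury ventilated knockout minus ventilated wild type; green points were called in both in the same direction, purple triangles in opposite directions. H2 genes, Alpl, Stbd1, Igj and Chi3l1 keep their direction, and the triangles with a fall in unventilated lung, Ttn among them, are mostly muscle genes.

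Some called genes had a like difference with and without ventilation. Chi3l1 stood at 309 and 380.4 CPM in the wild type groups and at 105, 131 and 124 CPM in the knockout groups. Stbd1, a glycogen-binding protein, stood at 22.7 and 16.2 CPM in wild type and at 76.1, 62.4 and 56.3 CPM in knockout. Rprl1, an RNA related to that of ribonuclease P, stood at 54.1 and 58.1 CPM in wild type and 185, 242 and 329 CPM in knockout. These genes were picked here after their values were seen. How many of all members had levels as separate by genotype was not counted. The log2 fold changes of Bdkrb2, the bradykinin B2 receptor, were 1.42, 2.42 and 2.54 (unventilated, low-injury, high-injury) in the authors' deposited tables, and those of Alpl 3.59, 1.68 and 1.91. H2-K2 was at 4.26, 3.33 and 3.74 and Igj at 2.24, 2.31 and 2.54. Grp had values of -2.42, -1.96 and -2.98, all called, and Rps3a1, a ribosomal protein gene, of -1.18, -1.21 and -1.15. Without the X, the Y and chromosome 17, 438 of 581 called genes had the same sign in the low-injury comparison, and 60 were called in the same direction.

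Gene groups differed in how far they were shared. B cell genes were also lower in low-injury knockout (13 of 21 fell, median -1.40) but not in high-injury knockout (0 of 22 called, median 0.07). Cardiac muscle genes went the opposite way in low-injury knockout (17 of 25 rose, median 1.34), with Myh6 at 252 CPM in ventilated wild type and 641 CPM in low-injury knockout, and had a median of 0.81 in high-injury knockout (3 of 25 rose). Of the 22 genes called in opposite directions, 21 fell in unventilated and rose in ventilated knockout lung, mostly genes of heart muscle such as Myh6 and Tcap, and 1, Plcb1, did the reverse (0.79 and -1.02 in the authors' deposited tables). Interferon GTPases had medians of -0.07 (1 of 15 rose) and 0.37 (1 of 16 rose), and cytotoxic cell genes of -0.60 (0 of 9 called) and 0.14 (0 of 12 called). The rest of the 15 cytotoxic cell genes measured in unventilated lung were below the abundance minimum in these comparisons. HSP70 and HSP110 genes had medians of 0.06 and 0.15. In low-injury knockout 1 of them rose, Hsph1 (1.12, adjusted p = 0.00804 in the authors' deposited table). In high-injury knockout 2 rose, Hspa1b (1.46, adjusted p = 1.34e-05) and Hspa1a (1.31, adjusted p = 4.12e-05), and 1 fell, Hspa12a (-0.95, adjusted p = 0.0251 in the authors' deposited table). The small heat shock gene Hspb1 had values of 0.95 (adjusted p = 7.92e-05) and 0.82 (adjusted p = 0.00872). MHC class I and peptide loading genes rose in 6 of 27 cases in low-injury and 6 of 27 in high-injury knockout. Ciliated cell genes had medians of -0.27 (2 of 27 fell) and 0.16 (0 called).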

How the data were processed

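RNA of whole mouse lungs was sequenced from TruSeq libraries, per the labels. Bowtie 1.1.2, the mouse build mm9, R 3.0.1 and edgeR are named in the submitters' processing notes. The authors deposited 4 comparison tables with 21590 genes each and 0 columns of per-library values. Per the file headers, logFC and logCPM are on the log2 scale of the authors' edgeR output (read as log2 fold change and log2 of the mean CPM of both groups), and PValue and FDR are the authors' deposited p-value and its adjusted form. The edgeR settings and counting are not given in the sources used here. Depth per library is unknown.

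The level of a gene in each group was computed from its deposited mean abundance and log2 fold change. Each SE is the size of the deposited log2 value over the normal deviate of the deposited p-value, 95% intervals followed from it, and 265 members with p of 1 have none. The procedures were tested on simulated data. Both ventilated knockout tables were read against ventilated wild type, although the labels list unventilated wild type under every file: over 10562 genes the rebuilt reference differed by a median of 0.0491 and 0.0450 log2 from ventilated and by 0.204 and 0.203 log2 from unventilated wild type. Genes were matched to RefSeq by Entrez identifier (21534 matched), since 27 symbols had become dates. Scripts ran in Python 3.11.15 with pandas 2.3.3, scipy 1.17.1, numpy 2.4.6 and, for figures, matplotlib 3.10.9.

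Members, the 58 gene lists and the 4 added lists were chosen with earlier results of these data known. Named by rule were the claudins, the 15 largest rises and falls without predicted genes, the 10 smallest p each way, up to 4 called genes per list, all genes of lists of 12 or fewer, the 10 neighbours on each side of Cldn4 and sex-linked genes. Other genes named were chosen after their values were seen. Alternatives varied the thresholds, the abundance minimum, the adjustment, the centring and the chromosomes and markers left out.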

Additional observations from a re-analysis of the deposited data

How the results depend on the processing

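Of 676 calls, 345 passed an adjusted p of 0.01, 256 reached 1 in size on the log2 scale and 160 passed Bonferroni adjustment, which was a matter of how strict the threshold was. The share of rises among calls was 42.2% in the main reading and from 39.4% to 44.3% over the alternatives. At an adjusted p of 0.01, 7 interferon GTPases, 3 antiviral effectors, 3 mitosis genes and 5 ciliated cell genes kept their call. At a minimum of 3 on the log2 CPM scale, 5 antiviral effectors, 3 mitosis genes, 11 B cell genes and 3 cytotoxic cell genes were called, from fewer genes tested, and 46 called genes were also called in low-injury knockout. Had the deposited abundance been a mean of log2 CPM, Cldn4 would stand at 38.9 CPM in wild type and 0.582 CPM in knockout. No direction changed under the alternatives run. Adjustment over members only and centring on the median of all members left 195 and 196 of 196 named genes on their side of the threshold, and the first added 1 call. The narrower interferon motif and the lists without members at exactly 0 were chosen after seeing the data. No paired analysis was possible because the tables hold no values per library, and leaving out a replicate was not possible for the same reason. Unknown depth limits what can be said of genes near the abundance minimum.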
